A study of Mus musculus with 30 samples.

Results

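The axon guidance ligands and receptors were examined in endothelial cells (ECs) of the adult mouse brain, acutely isolated or grown in primary culture. The set holds every gene whose symbol names a class 3 to 7 semaphorin, a plexin, a netrin, an Unc5 receptor, a Robo receptor, a Slit, an Eph receptor or an ephrin, with Efnb2 and Ephb4 left out. It has 64 members among 21820 protein-coding genes: 20 semaphorins, 9 plexins, 4 netrins, 4 Unc5 receptors, 4 Robo receptors, 3 Slits, 13 Eph receptors and 7 ephrins. The rule reads symbols and no measured value, although the set was chosen with earlier results of these data known.

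RNA-seq covered 14 libraries and ATAC-seq, which maps accessible chromatin with a transposase, covered 10. Acute ECs were viable GFP-positive cells sorted after papain digestion from homozygous Tie2-GFP mice, in which an endothelial promoter drives GFP, and GFP-negative cells of the same sort gave 2 further RNA-seq libraries. The data of cerebrum and cerebellum were combined in each of the 2 acute and 2 GFP-negative libraries, which were read as single ends of 75 cycles. Cultures were kept for 8 days in endothelial growth medium with 5% serum and purified with puromycin, to which brain ECs are resistant. WT replicates 1 and 2 came from C57BL/6J mice by method A (papain, 6 mice of 2 months), and WT replicates 3 to 6 came from Ctnnb1flex3/+;Tie2-GFP mice by method B (Dounce homogenization, then collagenase and dispase, 4 to 6 mice). The stabilized cultures came from Ctnnb1flex3/+;Pdgfb-CreER;Tie2-GFP mice, whose ECs keep a beta-catenin that lacks its degradation signal. Of their RNA-seq replicates, 1 and 2 were by method A and 3 and 4 by method B. Both of their ATAC-seq replicates were by method B. The stabilized mice and the Ctnnb1flex3/+;Tie2-GFP controls had received 4HT, the active form of tamoxifen (100 ug on postnatal day 10). Whether the C57BL/6J mice received it as well is not clear from the methods. All mice were male, and ages of 8 to 16 weeks were given for the cultures. RNA libraries of WT replicates 3 and 4 were prepared at another facility and read for 150 cycles, and all other cultures for 36 cycles. The paper's legend to its principal component plots assigns method A to the other 4 WT RNA-seq cultures. Its methods text assigns method B to replicates 5 and 6 among them, and that version is used here. Which version is right could not be checked, so the method of these replicates is uncertain. Each group holds wells or sorts that pool several mice, with 2 wells per culture experiment, so that p-values over them measure the spread between these libraries. Isolation method and genotype, or read length and facility, change with the WT experiments and cannot be told apart.

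These proteins were named for steering growing axons, and many of them also pattern blood vessels. Secreted class 3 semaphorins signal mainly through plexins with neuropilins as coreceptors, whereas Sema3e can bind Plxnd1 directly and the membrane-bound classes bind plexins without neuropilins. Netrins signal through Dcc, neogenin and the Unc5 receptors, Slits through Robo receptors, and ephrins are membrane ligands that activate Eph receptor tyrosine kinases on a touching cell.

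Total estimated counts ranged from 24284843 to 94686456 per RNA-seq library. The mitochondrial share was 10.6% and 11.2% in acute ECs, 14.9% and 24.2% in GFP-negative cells and 0.667% to 2.58% in cultures. All 7 EC markers examined (among them Cldn5, Pecam1 and Cdh5) were at 1 TPM or more in each acute and cultured library. Their summed levels were 2472 to 2818 TPM in acute ECs, 1083 to 3007 TPM in WT cultures and 1339 to 4162 TPM in stabilized cultures. In GFP-negative cells the sums were 98.5 to 111 TPM. TPM, the unit of these levels, divides counts by transcript length, so that levels of different genes can be compared. The 6 pericyte markers summed to 510 and 531 TPM in acute ECs and to 2.67 to 5.61 TPM in WT cultures. The 4 smooth muscle markers (Acta2, Tagln, Myh11 and Cnn1) summed to 215 to 233 TPM in acute ECs and 501 to 3068 TPM in WT cultures. Acta2, Tagln and Cnn1 were higher in every WT culture than in both acute libraries. Myh11 went the other way, from 25.0 and 19.7 TPM in acute ECs to 0.502 to 3.11 TPM in WT cultures. Hemoglobin transcripts made up 0.329% and 2.13% of the acute libraries. The deletion of Ctnnb1 exon 3 could not be read from the transcript values. Axin2, a general target of beta-catenin, was at 0.0998 to 0.269 TPM in WT cultures and at 0.974 to 1.86 TPM in stabilized cultures. It was at 51.8 and 47.0 TPM in acute ECs. For Lef1, Tcf7, Nkd1, Apcdd1 and Sox17, the ranges of all WT and all stabilized cultures overlapped. Lef1, for example, was at 1.615 to 18.76 TPM in WT and 4.812 to 10.25 TPM in stabilized cultures. Within each isolation method at the same read length, Tcf7, Nkd1 and Apcdd1 were higher in both stabilized than in both WT wells. Tcf7 was at 3.161 and 3.225 TPM against 0.2575 and 0.4788 TPM in method A. In method B it was at 0.9635 and 1.202 TPM against 0.5738 and 0.828 TPM. Lef1 and Sox17 were higher in stabilized wells of method A and lower in those of method B. These differences were not tested.

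Acute ECs carried few members of the set at a high level. At 5 TPM or more in both acute libraries were 12 of the 64 members, and 36 were under 1 TPM in both. The semaphorins made up most of the signal, with a sum of 484 TPM in one acute library and 689 TPM in the other, of 724.5 and 981 TPM for all members. Sema3c, a secreted semaphorin, led with 261 and 418 TPM. Sema7a, which is anchored in the membrane by a lipid and binds Plxnc1 and integrins, followed with 110 and 147 TPM. Both values of Sema3c were above both of Sema7a, and the next 3 members overlapped one another. The values were 43.0 and 108 TPM for Plxnd1, the endothelial receptor for Sema3e. Robo4, an endothelial Robo receptor, was at 70.5 and 56.0 TPM. Sema6a, a transmembrane semaphorin that binds plexins of class A, was at 56.2 and 62.9 TPM. Epha4, which binds ephrins of both classes, came sixth at 43.4 and 31.9 TPM, with no overlap with Sema6a. The secreted Sema3g was lower, at 18.9 and 24.0 TPM. Ntn4, a laminin-like netrin of basement membranes, was at 12.1 and 13.3 TPM, and overlapped Efna1 (7.04 and 16.2 TPM) and Unc5b (10.1 and 12.9 TPM). Sema6d was just below it, at 11.9 and 10.7 TPM.

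Plxnb1, a receptor for Sema4d, ranked ninth by its mean but stood at 22.5 TPM in the first acute library and 0.922 TPM in the second. The GFP-negative libraries held 68.8 and 43.9 TPM of Plxnb1. Of 6 astrocyte markers, Gja1 was at 464.5 TPM in the first acute library and 65.9 TPM in the second, while the other 5 summed to 4.27 and 22.2 TPM, and their part in the Plxnb1 value was not tested. Plxna2 completed the acute set above 5 TPM, with 7.0 and 14.7 TPM.

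No count at all was assigned in either acute library to Epha6, Unc5d, Plxnb3 or Sema4f, where a count of 0 allows up to 3 counts per library. In the 6 WT cultures the members without a count were Epha10, Epha6, Epha8 and Ntn5, and in the 4 stabilized cultures Epha10 and Epha6. GFP-negative cells held no count of Robo3. Over acute and cultured ECs together, 21 members stayed under 1 TPM in every library: 8 Eph receptors, Robo2, Robo3, Slit1, Unc5d, Efna2, Efnb3, Ntn5, Plxnb3, Plxnc1, Sema3b, Sema4a, Sema4f and Sema5b. The 8 members at 5 TPM or more in each of these libraries were Epha4, Robo4, Unc5b, Efna1, Ntn4, Plxna2, Plxnd1 and Sema7a.

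The comparison of GFP-positive with GFP-negative cells asks which members belong to brain ECs rather than to the cells around them. A gene was called where edgeR's quasi-likelihood test gave a Benjamini-Hochberg adjusted p under 0.05 over all genes tested, with more than a 2-fold change and at least 5 TPM in each library of the higher group. Of 62 members tested, 9 were called higher and 4 lower in GFP-positive cells, beside 8.30% and 7.56% of the 15101 protein-coding genes tested. The higher members were 4 semaphorins (Sema3c, Sema3g, Sema7a, Sema6a), 2 plexins (Plxnd1, Plxna2), Robo4, Unc5b and Efna1. The median log2 fold change of the members was -2.59, against -0.06 for all genes tested, and 46 of the 62 were below 0. In bulk samples such as these, fewer cells of a type and less RNA per cell cannot be told apart.

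Robo4 had the largest change of the 13 members called, from 0.129 and 0.365 TPM in GFP-negative cells to 70.5 and 56.0 TPM in acute ECs, which was 8.87 ± 0.86 (SE) on the log2 scale with an adjusted p of 0.00212 (edgeR). Sema3g was at 0.103 and 0.255 TPM in GFP-negative cells, and its log2 fold change was 7.37 ± 0.54 (adjusted p = 0.00165, edgeR). Sema3c was at 1.01 and 4.09 TPM in GFP-negative cells, with a log2 fold change of 7.18 ± 0.56 (adjusted p = 0.00172, edgeR). The GFP-positive and GFP-negative values of these 3 genes lay more than an order of magnitude apart. Efna1, the ligand of Epha2, was at 0.201 and 1.16 TPM in GFP-negative cells and rose by 4.24 ± 0.87 on the log2 scale (adjusted p = 0.0162, edgeR). Unc5b, a netrin receptor of vessels, was at 2.86 and 1.64 TPM there and rose by 2.61 ± 0.54 (adjusted p = 0.0171, edgeR). Sema6a stood at 11.1 and 8.38 TPM in GFP-negative cells, and its log2 fold change was 2.30 ± 0.47 (adjusted p = 0.0163, edgeR). Plxna2 was at 3.22 and 3.84 TPM, with a log2 fold change of 1.94 ± 0.33 (adjusted p = 0.00906, edgeR). Each of these 4 members was higher in both acute libraries than in both GFP-negative libraries. In a fit of all 14 libraries, Unc5b (adjusted p = 0.107, edgeR) and Sema6a (adjusted p = 0.0612) lost their calls.

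The same direction held for Sema7a and Plxnd1, for which the GFP-negative libraries differed between themselves in TPM. Sema7a was at 34.1 and 1.70 TPM in GFP-negative cells, and its log2 fold change was 5.21 ± 0.70 (adjusted p = 0.00463, edgeR). Plxnd1 was at 37.5 and 3.87 TPM, with a log2 fold change of 2.28 ± 0.38 (adjusted p = 0.00888, edgeR). Its estimated counts there were 4026 of 74422089 in total and 2344 of 53421411 in total. Those of Sema7a were 1745 and 509. As a share of the total, the GFP-negative libraries thus differed less than in TPM for both genes. With an offset for transcript length in edgeR's test, the log2 fold changes fell to 2.80 for Sema7a (adjusted p = 0.190, edgeR) and 1.75 for Plxnd1 (adjusted p = 0.316, edgeR), and neither was called. The first GFP-negative library held the higher TPM of both.

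The 4 members called lower were Efnb3, a neuronal and glial ephrin, Sema4d, a semaphorin of oligodendrocytes and immune cells, Plxnb2, a receptor of class 4 semaphorins, and Ntn4. Efnb3 was at 12.9 and 9.82 TPM in GFP-negative cells and 0.0346 and 0.0895 TPM in acute ECs, a log2 fold change of -7.60 ± 0.69 (adjusted p = 0.00187, edgeR). Sema4d was at 32.7 and 20.8 TPM against 0.313 and 1.56 TPM, or -5.15 ± 0.99 (adjusted p = 0.0132, edgeR). Plxnb2 was at 22.0 and 68.2 TPM against 1.06 and 5.75 TPM, or -2.93 ± 0.33 (adjusted p = 0.00287, edgeR). In all 3 the groups were well apart. Ntn4 differed less, with 35.2 and 56.3 TPM against 12.1 and 13.3 TPM and a log2 fold change of -1.41 ± 0.33 (adjusted p = 0.0250, edgeR), and its call was lost when any one of 3 libraries (acute 2, GFP-negative 1 or GFP-negative 2) was left out (adjusted p of 0.0615, 0.0823 and 0.122) and with the length offset (0.0543). Markers of neurons, astrocytes, oligodendrocytes and microglia moved the same way as the lower members: the summed levels in GFP-negative and acute libraries were 216 to 269 and 17.7 to 38.4 TPM for 7 neuronal markers, and 755 to 2778 and 30.0 to 37.5 TPM for 6 oligodendrocyte markers. Their part in the result was not tested. Without the minimum of 5 TPM, 24 members were called lower, beside 2978 of the 15101 genes tested. With scaling by library size alone, 9 members were called higher and 6 lower, and over all genes 930 and 1419 in place of 1253 and 1142.

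Culture for 8 days changed which members led. Between the 6 WT cultures and the 2 acute libraries, 3 of 53 members tested were called higher in culture (Epha2, Plxnb2 and Sema3a) and 3 lower (Sema3c, Sema6a and Sema6d), beside 13.5% and 10.2% of the 13785 genes tested. Both shares of the members were below those of all genes. A further 11 members passed the adjusted p but had under 5 TPM in a library of the higher group, so that 9 higher and 8 lower members passed the test without that minimum. Of all 13785 genes, 3160 higher and 2825 lower passed without it. The median log2 fold change was 0.53 for the members and 0.10 for all genes tested.

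Epha2, an Eph receptor of epithelial and angiogenic endothelial cells, had 1.85 and 4.38 TPM in acute ECs. In the WT cultures it had 46.4, 51.6, 50.8, 37.2, 84.2 and 87.4 TPM (59.6 ± 21, SD, n = 6). Every culture was above both acute libraries, and the log2 fold change was 3.62 ± 0.93 (SE; adjusted p = 0.0122, edgeR). Within single experiments it was 3.53 for method A, 4.45 for method B at 36 cycles and 1.77 for method B at 150 cycles. Epha2 thereby moved from rank 23 of the members by mean TPM in acute ECs to rank 3 in culture, with ranks from 1 to 8 in the single WT cultures. It was at 1.40 and 1.63 TPM in the GFP-negative libraries, where the smooth muscle markers summed to 3585 to 5266 TPM, and the part of such cells in the cultures was not tested.

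Plxnb2 was at 1.06 and 5.75 TPM in acute ECs. The 6 WT cultures had 9.81, 15.9, 26.5, 20.9, 24.6 and 19.9 TPM (19.6 ± 6.1, SD). All cultures were above both acute libraries, and the log2 fold change was 2.31 ± 0.55 (adjusted p = 0.00911, edgeR). Sema3a, a secreted ligand of the neuropilin 1 and plexin A complex, was at 0.00682 and 0.702 TPM in acute ECs, which were 4 and 76 counts. In WT cultures it was at 6.06, 7.69, 6.50, 5.23, 5.22 and 5.57 TPM, and these 6 values were the closest to one another of the members that changed. The log2 fold change of Sema3a was 5.10 ± 1.11 (adjusted p = 0.00612, edgeR), and the value was 4.12 without acute replicate 1 and 8.68 without acute replicate 2. Against the 150-cycle cultures alone it was 4.35 and was not called (adjusted p = 0.0503, edgeR). Plxnb2 and Sema3a were also present in GFP-negative cells (Sema3a at 3.09 and 4.74 TPM), and the part of other cells in the cultures was not tested.

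Sema3c lost its lead in culture. Against 261 and 418 TPM in acute ECs, the WT cultures had 2.59, 3.72, 16.2, 14.4, 6.55 and 7.04 TPM. The log2 fold change was -5.15 ± 0.43 (adjusted p = 9.55e-05, edgeR), between -4.67 and -6.13 in the 3 experiments taken singly. The pericyte markers were lower in culture as well, and their part in the result was not tested. Sema3c was at 1.01 and 4.09 TPM in the GFP-negative libraries, whose pericyte sums were 364 to 702 TPM. Sema6a went from 56.2 and 62.9 TPM to 0.529, 1.35, 18.6, 14.5, 4.61 and 2.63 TPM. Its log2 fold change was -4.72 ± 0.75 (adjusted p = 0.00141, edgeR), with -6.87 in method A and -3.86 in the cultures of 150 cycles. All 6 cultures were below both acute libraries for both genes. The semaphorin sum of WT cultures, 153 to 283 TPM, was below that of the acute libraries.

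Sema6d, a transmembrane ligand of Plxna1, was at 11.9 and 10.7 TPM in acute ECs and 7.54, 12.6, 4.05, 3.46, 2.23 and 2.03 TPM in WT cultures. One culture of method A lay above the acute values, and the log2 fold change was -2.53 ± 0.74 (adjusted p = 0.0214, edgeR). Sema6d was at 24.3 and 72.0 TPM in GFP-negative cells, and the part of other cells in its acute level was not tested. Its call was lost with a length offset (log2 fold change -1.60, adjusted p = 0.104, edgeR) and without acute replicate 1 (-2.13, adjusted p = 0.133). Epha2 and Plxnb2 also lost their calls without either acute library, at adjusted p values of 0.0718 and 0.0843 for Epha2 and of 0.0555 and 0.0570 for Plxnb2. Without acute replicate 1 there were 1 higher and 3 lower calls, with Sema4c (-2.77) among the latter. Without acute replicate 2 there were 1 higher and 6 lower, with Plxnb1 (-5.58), Sema5a (-7.77) and Slit2 (-2.53) added. Sema4c, Sema5a and Slit2 were named after their values were seen.

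The length offset changed the set of member calls more than its size. Over all genes, 1782 were called higher and 1815 lower with the offset, in place of 1866 and 1409. With it 5 members were called higher, Plxna2 (log2 fold change 1.45, adjusted p = 0.0122, edgeR) and Sema6b (1.83, adjusted p = 0.0127) joining the 3, and 3 lower, with Plxnd1 (-1.76, adjusted p = 0.0205) in the place of Sema6d. Sema6b, a relative of Sema6a, was at 3.13 and 3.69 TPM in acute ECs and 8.15 to 50.9 TPM in WT cultures. Plxna2 was at 25.6 to 61.1 TPM in WT cultures, above its 7.0 and 14.7 TPM in acute ECs. Plxnd1 was at 31.8, 57.1, 36.5, 30.2, 17.3 and 13.8 TPM in WT cultures against 43.0 and 108 TPM. Among the WT cultures only the second, by method A, lay within the acute range of Plxnd1.

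Sema3d and Sema3e, 2 secreted class 3 semaphorins, were almost absent from acute ECs and present in every culture. Sema3d had 5 and 0 counts in the acute libraries, and 93, 137, 632, 498, 5559 and 8144 counts in the WT cultures. Sema3e had 25 and 2 counts in the acute libraries, and 208, 311, 2024, 1824, 2726 and 4380 counts in the WT cultures. Each culture was above both acute libraries, with adjusted p values of 0.0118 for Sema3d and 0.00312 for Sema3e (edgeR), but method A cultures held only 0.735 to 1.69 TPM of the 2 genes, below the minimum for a call. The fitted log2 fold changes of 10.26 ± 2.6 and 7.67 ± 1.45 rest on the few acute counts.

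**Figure D1:**
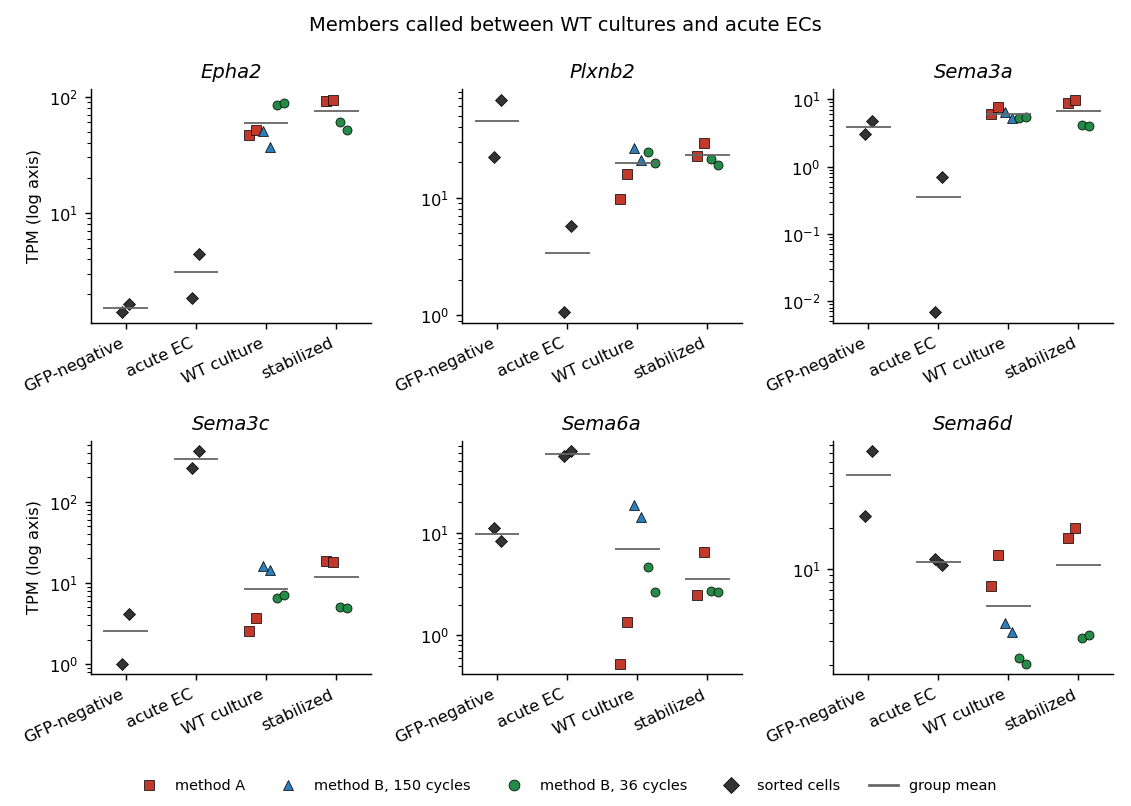
TPM of the 6 members called between WT cultures and acute ECs, on log axes with 1 symbol per library and grey lines for the group means (2 GFP-negative, 2 acute, 6 WT and 4 stabilized libraries). Symbols mark sorted cells and the isolation method and read length of each culture. Epha2, Plxnb2 and Sema3a were higher in every WT culture than in acute ECs, Sema3c and Sema6a lower in every one, and 1 WT culture had more Sema6d (12.6 TPM) than the acute libraries.

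Several members of acute ECs had no call in culture. The log2 fold change was 0.24 ± 0.41 for Robo4 (adjusted p = 0.656, edgeR), whose WT cultures ranged from 64.0 to 414 TPM. Sema7a had -1.63 ± 0.61 (adjusted p = 0.0555, edgeR), with 42.8 to 92.1 TPM in the WT cultures against 110 and 147 TPM. All 6 WT cultures were thus below the acute values of Sema7a, and DESeq2 called it lower (-1.73, adjusted p = 0.0209). Efna1, Sema3g and Unc5b had log2 fold changes of 1.04 ± 0.82, -0.88 ± 1.43 and -0.58 ± 0.98, and their WT cultures lay on both sides of the acute libraries. A p above the threshold does not show that a level stayed the same.

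Chromatin near the members was compared by the peaks that had been called in each ATAC-seq library at more than 2-fold enrichment over background and a −log10 q over 2. Between 31779 and 98732 peaks per library passed, fewest in the acute libraries and in WT culture 2, and a missing peak was counted without regard to these totals. A peak within 1 kb of an annotated start site was present in both acute libraries for 40 of the 64 members (62.5%, against 54.0% of all protein-coding genes) and in all 6 WT cultures for 37 (57.8% against 52.9%). In all 10 libraries 34 members had one (53.1% against 50.2%), and 9 had none in any library (14.1% against 31.9%). No member had a start-site peak in both acute libraries and in no WT culture. Ephb2, Robo2 and Unc5a, named after their values were seen, had one in all 6 WT cultures and in neither acute library (4.69% of members against 1.72% of all genes). Their transcripts were under 1 TPM in every acute and cultured library for Ephb2 and Robo2, and Unc5a reached 3.86 and 3.90 TPM only in the WT cultures of 150 cycles.

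Start-site peaks did not follow the transcripts of Sema3c and Sema6a, whereas for Sema3a and Sema3d both were higher in culture. Agreement over all members was not counted. Sema3c, with its large fall in culture, had a start-site peak of 14.6- and 13.7-fold enrichment in the acute libraries, and of 16.4, 12.9, 12.4, 11.3, 12.3 and 11.7 in the WT cultures. The 2 ranges overlapped. Sema6a likewise had enrichments of 10.6 and 10.1 in acute ECs and 8.81 to 12.7 in WT cultures. Sema3a had no start-site peak in acute ECs and one in 5 of 6 WT cultures, of 4.69 to 8.27. Sema3d had 4.08 and 4.46 in acute ECs and 8.72 to 16 in WT cultures, with no overlap.

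**Figure D2:**
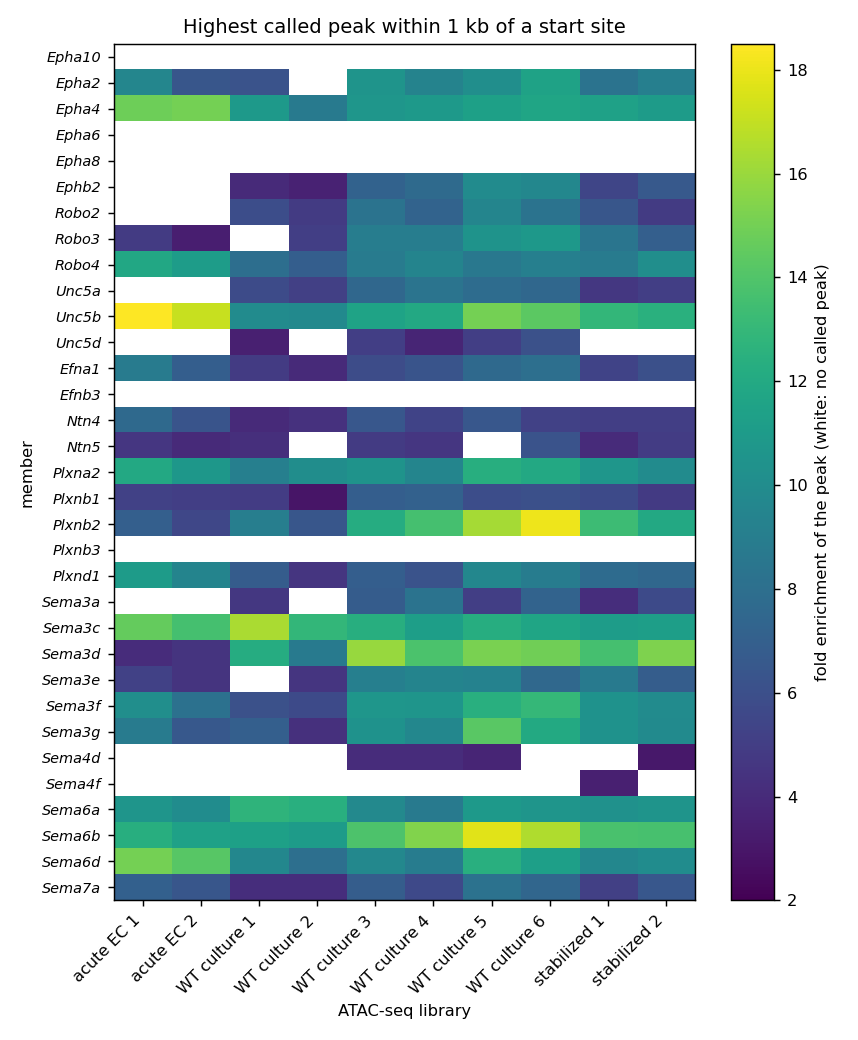
Fold enrichment of the highest called peak within 1 kb of an annotated start site of each named member (colour, linear scale) in the 10 ATAC-seq libraries, with white where no peak was called. Sema3c and Sema6a were coloured in all 10 libraries, Sema3a was white in both acute libraries, and Ephb2, Robo2 and Unc5a were coloured only in cultures.

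Around the members, within 20 kb of the gene bodies, 825 merged peak regions were found. Of these 114 had a peak in all 10 libraries, 27 in both acute libraries and no culture (3.27%, against 2.68% of 125413 regions over all chromosomes), and 53 in all 8 ATAC-seq cultures and neither acute library (6.42% against 8.06%). Epha2 had 2 regions of the culture-only kind in its introns, 9280 and 10025 bases after its start site, and both held an AP-1 motif within the window around the summit. An acute-only region with its summit at -5246 bases from the Epha2 start site (enrichments 6.93 and 6.25) held none. AP-1 is the dimer of Fos and Jun proteins, and its motif was searched as TGANTCA on both strands in 201 bases around each summit. It was in 30 of the 53 culture-only regions (56.6%, against 49.6% of all such regions) and in none of the 27 acute-only regions (3.66% of all such regions). TEAD motifs (GGAATG) were in 9 of the 53 (17.0% against 23.1%). TCF/LEF motifs (CTTTGAT), bound by the partners of beta-catenin, were in 4 of the 27 acute-only regions (14.8% against 12.3%) and in 2 of the 53 culture-only regions (3.77% against 2.28%). SP/KLF motifs (GGGCGG) were in 6 of the 27 acute-only regions (22.2% against 8.44%) and 6 of the 53 culture-only regions (11.3% against 5.85%), and ETS motifs (CCGGAA) in 3 of the 27 (11.1% against 4.01%) and 2 of the 53 (3.77% against 5.09%). These shares rest on few regions and were not tested.

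Shown are 4 culture-only regions with an AP-1 motif near Epha2, Sema3a and Sema3c, which were called in culture, and 2 acute-only regions with a TCF/LEF motif near Plxnd1 and Sema7a, which were not. Culture-only regions with an AP-1 motif, not shown, also lay near Sema6d and Sema6a, both called lower in culture. All those shown are windows of GRCm38.p6 read on the plus strand, 5′ to 3′, with matches of the AP-1, TEAD and TCF/LEF motifs in capitals. The first Epha2 window, chr4:141310420-141310620, and the second, chr4:141311165-141311365, lie in introns of Epha2. The Sema3a window, chr5:13499888-13500088, lies in an intron of Sema3a and has a TEAD match on the minus strand as well as the AP-1 match. The Sema3c window, chr5:17556180-17556380, lies between genes, with its summit at -18001 bases from the start site, and has its AP-1 match at the edge of the window.

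Epha2 first intronic region: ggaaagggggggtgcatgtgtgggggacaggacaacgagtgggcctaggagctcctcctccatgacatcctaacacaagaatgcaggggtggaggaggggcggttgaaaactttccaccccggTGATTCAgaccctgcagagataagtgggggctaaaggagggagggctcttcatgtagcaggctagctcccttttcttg

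Epha2 second intronic region: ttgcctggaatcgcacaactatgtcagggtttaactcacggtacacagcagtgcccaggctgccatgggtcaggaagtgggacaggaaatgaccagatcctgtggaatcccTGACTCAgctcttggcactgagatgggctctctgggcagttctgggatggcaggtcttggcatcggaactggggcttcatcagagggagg

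Sema3a intronic region: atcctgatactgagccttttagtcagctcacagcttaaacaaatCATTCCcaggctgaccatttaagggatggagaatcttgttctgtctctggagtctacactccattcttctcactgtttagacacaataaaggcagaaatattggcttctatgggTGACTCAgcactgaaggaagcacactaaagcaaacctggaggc

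Sema3c upstream region: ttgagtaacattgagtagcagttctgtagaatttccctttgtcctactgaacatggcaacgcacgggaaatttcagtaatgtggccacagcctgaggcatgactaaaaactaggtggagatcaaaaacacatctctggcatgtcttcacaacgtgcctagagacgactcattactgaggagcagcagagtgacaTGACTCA

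The first Epha2 region had enrichments of 4.53, 4.20, 7.85, 7.21, 9.18 and 9.28 in the WT cultures, and the second 6.18, 7.27, 8.56, 8.49, 9.93 and 10.7. The Sema3a region reached 14.3, 10.0, 14.5, 13.5, 16.9 and 19.4. At the Sema3c region, upstream of a gene whose transcript fell, the values were 7.15, 4.84, 16.8, 20.0, 17.1 and 19.5. For 3 of these 4 regions the cultures of method A had the lowest values, and for Sema3a those 2 cultures were within the range of the others or below it.

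The acute-only windows are chr6:115996190-115996390, between genes with its summit at -1285 bases from a Plxnd1 start site, and chr9:57930338-57930538, between genes at -9675 bases from that of Sema7a.

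Plxnd1 upstream region: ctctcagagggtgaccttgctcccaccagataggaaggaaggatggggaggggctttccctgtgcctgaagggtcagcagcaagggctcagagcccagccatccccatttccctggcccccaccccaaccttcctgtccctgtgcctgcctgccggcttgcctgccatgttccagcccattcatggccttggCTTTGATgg

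Sema7a upstream region: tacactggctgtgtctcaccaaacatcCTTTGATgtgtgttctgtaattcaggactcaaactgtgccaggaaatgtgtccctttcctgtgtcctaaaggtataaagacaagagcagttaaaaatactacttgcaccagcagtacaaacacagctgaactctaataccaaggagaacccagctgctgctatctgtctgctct

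In the acute libraries the enrichments were 5.97 and 5.89 at Plxnd1 and 7.08 and 6.56 at Sema7a, and none of the 8 cultures had a peak at either of them. Sema5a, a semaphorin with thrombospondin repeats, was at 9.65 and 4.51 TPM in acute ECs and at 0.0202 to 0.0996 TPM in WT cultures (log2 fold change -7.46 ± 1.02, adjusted p = 0.000738, edgeR), and missed a call by the 5 TPM minimum. Promoters of 55 members (71 start sites, RefSeq, 250 bases before to 50 after the start) held the SP/KLF motif GGGCGG in 69.0%, against 35.7% of all promoters. AP-1 motifs were in 4.23% of them (7.81% of all) and TCF/LEF motifs in none (3.73% of all). ETS motifs (CCGGAA) were in 9.86% of member promoters and 14.9% of all. A match is a description of letters, and no binding was measured.

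The WT cultures differed from one another by experiment more than by well. At 5 TPM or more in both wells of at least 1 experiment were 22 members. The ratio of the highest to the lowest experiment mean was over 2 for 17 of them and over 5 for 8, with a median of 4.64, whereas the median of the largest ratio between the 2 wells of an experiment was 1.46 and the largest 2.55. By mean TPM, the highest experiment was method A for 8 members, method B at 150 cycles for 10 and method B at 36 cycles for 4. The order of experiments by share of the total counts can differ, as for Unc5b below. With 1 value per experiment, no test was made of these differences.

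Sema3d (32.0 times) and Sema3g (29.1 times) had the highest such ratios. Sema3g was at 54.8 and 82.6 TPM in method A, at 6.15 and 6.90 TPM in method B at 150 cycles and at 2.04 and 2.68 TPM in method B at 36 cycles. The method A cultures were above the acute ECs (18.9 and 24.0 TPM) and all method B cultures below. In fits of single experiments against acute ECs, Sema3g had log2 fold changes of 0.60, -4.24 and -4.12 in the same order. In TPM, Unc5b followed that order too. It was at 32.7 and 44.0 TPM in method A, 9.63 and 7.68 TPM at 150 cycles and 7.47 and 6.66 TPM in method B at 36 cycles. Its estimated counts were 832 and 794 at 150 cycles, of 32299475 and 32867083 in total. In method B at 36 cycles they were 2109 and 2870, of 43240857 and 65623544 in total. As a share of the total, Unc5b was thus lower at 150 cycles than in method B at 36 cycles. Efna1 was at 37.6 and 59.9 TPM in method A and 72.6 and 82.8 TPM at 150 cycles, but at 5.40 and 6.27 TPM in method B at 36 cycles. For these 3 members the direction against acute ECs thus depended on the experiment.

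Sema3d went the other way from Sema3g, with 0.766 and 0.735 TPM in method A, 4.62 and 3.45 TPM at 150 cycles and 25.3 and 22.8 TPM in method B at 36 cycles. Sema3e was at 1.44 and 1.69 TPM in method A, and at 17.9, 15.2, 10.8 and 11.6 TPM in the 4 cultures of method B. Robo4 was highest at 150 cycles, with 414 and 356 TPM against 101 and 110 TPM in method A and 64.0 and 67.3 TPM in method B at 36 cycles. Sema3f, a ligand of neuropilin 2, was at 38.1, 57.7, 48.5 and 44.9 TPM in the first 2 experiments and at 9.69 and 11.4 TPM in method B at 36 cycles. Within each experiment the wells of these 4 members were close. The smooth muscle markers also differed by experiment, and not in 1 order. Tagln was at 399 and 332 TPM in method A, 1178 and 1151 TPM at 150 cycles and 2322 and 2324 TPM in method B at 36 cycles. Acta2, in the same order, was at 153 and 163, 909 and 788, and 683 and 698 TPM. Cnn1 was at 7.46 and 5.27, 89.6 and 83.2, and 40.0 and 42.9 TPM. Myh11 was at 0.502 to 3.11 TPM in the WT cultures. The part of such cells in the members' levels was not tested. EC markers differed by experiment too, and not in 1 order. Cldn5, in the same order, was at 441 and 557, 739 and 774, and 92.1 and 118 TPM. Tie1 was at 90.1 and 139, 236 and 214, and 37.7 and 39.4 TPM. Cdh5 was highest in method B at 36 cycles (295 and 281 TPM), and Erg lowest at 150 cycles (19.9 and 15.3 TPM). The relation of EC markers to the members' levels was not tested either.

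**Figure D3:**
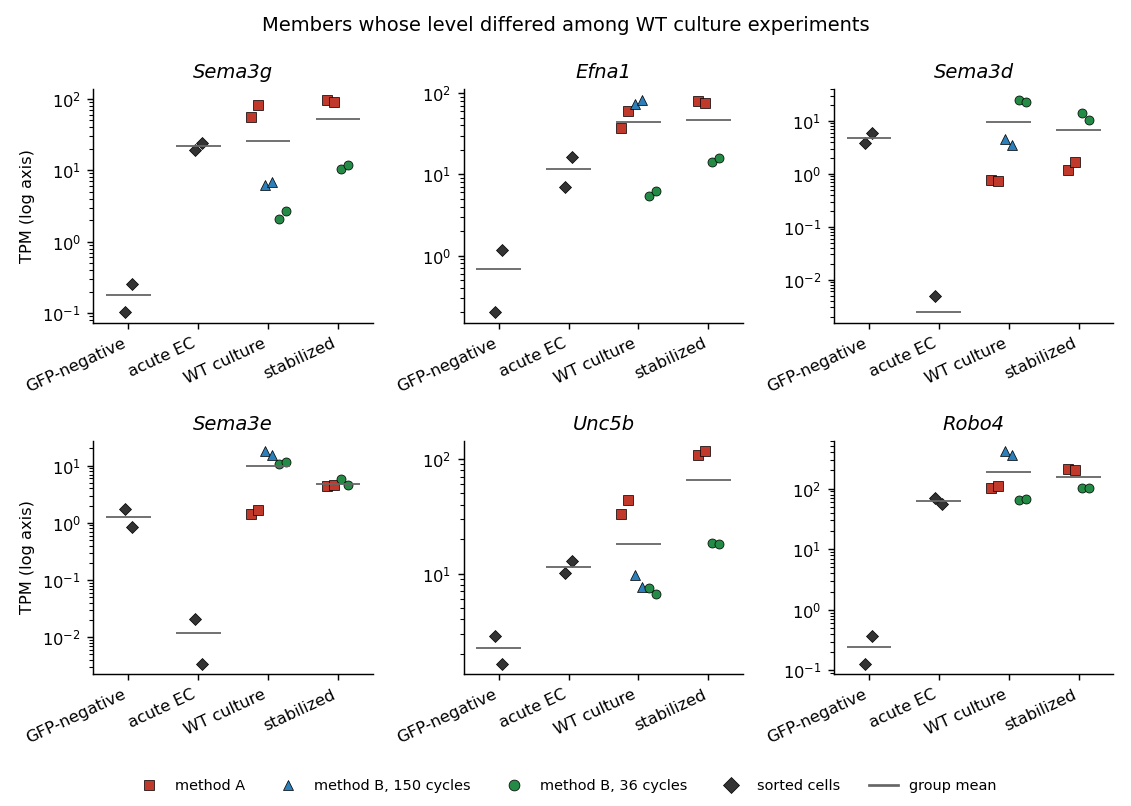
TPM of 6 members whose level differed among WT culture experiments, on log axes with 1 symbol per library, by isolation method and read length, and grey lines for group means. The wells of an experiment lie together, while Sema3g, Efna1 and Sema3d spread over more than an order of magnitude among the WT cultures, and Sema3g and Unc5b of WT cultures lie on both sides of acute ECs. The second acute library of Sema3d is at 0 and is not drawn.

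Stabilization of beta-catenin was compared with WT cultures to ask which members respond to this pathway in culture. By edgeR's quasi-likelihood test over 4 stabilized and 6 WT libraries, 0 of 49 members tested were called, and 0 of 12959 genes (0%). At an unadjusted p under 0.05 were 8 members and 1344 of all genes, and DESeq2 called 0 members, with 15 genes higher and 3 lower among all. The 8 members were Sema6b, Plxnd1, Plxna2, Plxnb1, Epha7, Robo1, Ntn4 and Sema6c. Epha7, Robo1 and Sema6c were named after their values were seen. The largest log2 fold changes among the abundant ones were 1.67 ± 0.52 for Plxnd1 (adjusted p = 0.406, edgeR) and 0.88 ± 0.22 for Sema6b (adjusted p = 0.358, edgeR), and Unc5b had 1.43 ± 0.79 (adjusted p = 0.539, edgeR).

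Stabilized and WT cultures of 1 isolation method and read length could be compared with 2 against 2 wells. The 2 wells of a genotype came from 1 experiment, so that p-values measure the spread between wells. Genotype and preparation cannot be told apart in either method. The isolation method of the WT wells taken as method B at 36 cycles is uncertain, as said above. In method A, where the WT cultures were C57BL/6J, 4 members were called higher (Sema6b, Epha7, Sema3c and Plxnd1), beside 5.39% of all genes tested, and none lower (0.918% of all). In method B at 36 cycles, where the genotypes shared the flex3 allele and Tie2-GFP, 6 were called higher (Unc5b, Ntn1, Sema3g, Efna1, Plxnd1 and Sema3f), beside 1.08% of all genes, and Sema3e lower, beside 0.288%. Ntn1, a secreted netrin, was named after its values were seen. Plxnd1 was the member called in both. It was at 31.8 and 57.1 TPM in WT and 171 and 192 TPM in stabilized cultures of method A, a log2 fold change of 1.45 ± 0.15 (adjusted p = 0.000851, edgeR). In method B it was at 17.3 and 13.8 TPM in WT and 29.3 and 26.7 TPM in stabilized cultures, or 1.05 ± 0.11 (adjusted p = 0.00204, edgeR). In TPM, all 7 EC markers were higher in both stabilized than in both WT wells of method A. Pecam1, for example, was at 1409 and 1403 TPM against 664 and 932 TPM. In method B at 36 cycles, Cldn5, Pecam1 and Tie1 were higher and Kdr lower, while Cdh5, Erg and Esam overlapped. The relation of the EC markers to the members' changes was not tested. With the 8 cultures of 36 cycles in 1 fit and method as a covariate, Sema6b, Unc5b, Plxnd1 and Sema3f were called higher of 47 members tested, beside 0.511% of all genes, and none lower, beside 0.0774%.

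For Sema6b the log2 fold changes in the 2 methods differed by -0.05 ± 0.16 (SE; adjusted p = 0.832, edgeR), whereas Sema3g and Sema3c differed with the method. Sema3g was at 96.6 and 88.8 TPM in stabilized cultures of method A, against 54.8 and 82.6 TPM in WT, with a log2 fold change of -0.33 ± 0.10 in counts. In method B it was at 10.3 and 11.8 TPM in stabilized against 2.04 and 2.68 TPM in WT cultures, or 2.34 ± 0.14 (adjusted p = 0.000653, edgeR). The TPM of Sema3g in method A thus lay above that in WT while the fitted change was below 0. Sema3c was at 18.4 and 18.3 TPM in stabilized cultures of method A against 2.59 and 3.72 TPM in WT (1.68 ± 0.09, adjusted p = 0.000344). In method B it was at 5.11 and 4.85 TPM against 6.55 and 7.04 TPM (-0.55 ± 0.07, not called). Its stabilized levels stayed far below the 261 and 418 TPM of acute ECs. Unc5b was at 109 and 117 TPM in stabilized cultures of method A and 18.4 and 18.2 TPM in those of method B, with log2 fold changes against WT of 0.76 and 1.52 in the fit with an interaction term. Over the 52 members with such a test, 25 (48.1%) had an interaction of stabilization with isolation method at an adjusted p under 0.05, beside 49.6% of all genes. The method A comparison also differs in the strain of its WT mice, which cannot be told apart from the method or from stabilization.

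**Figure D4:**
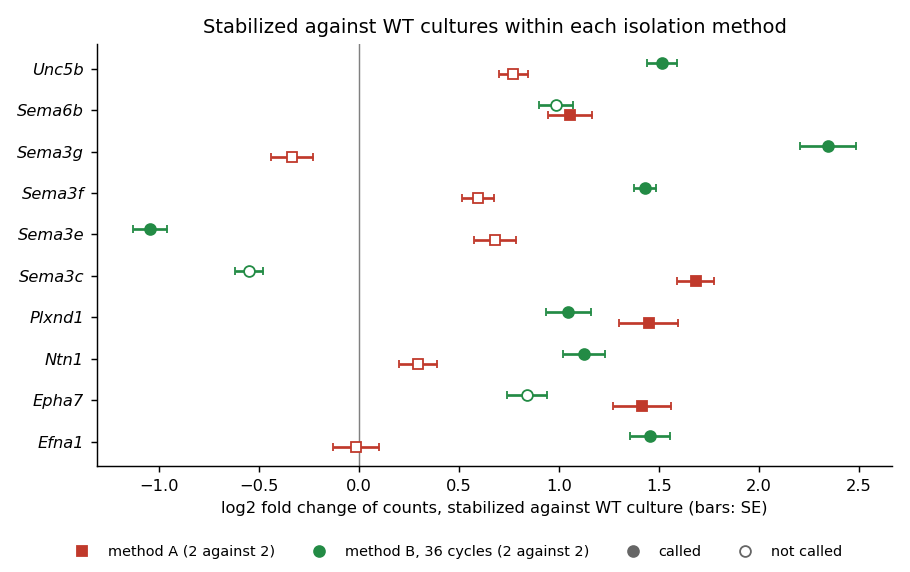
Log2 fold change of counts, stabilized against WT cultures, of the 10 members called within either isolation method (method A, red squares; method B at 36 cycles, green circles; 2 against 2 wells each). Bars are standard errors, and filled symbols were called. Plxnd1 was called on both sides, and Sema3c and Sema3e lie on opposite sides of 0 in the 2 methods.

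Coreceptors and intracellular partners of the members changed in culture more often in the lower direction. Of 91 genes in 5 lists, 80 were tested between WT cultures and acute ECs, with 9 called higher and 21 lower, beside 13.5% and 10.2% of all genes. Among the coreceptors and other receptors, neuropilin 1 (Nrp1) and neogenin (Neo1) were lower and the integrin subunit Itgb1 higher. Nrp1 was at 91.5 and 84.7 TPM in acute ECs and 12.0 to 33.4 TPM in WT cultures (log2 fold change -3.47 ± 0.57, adjusted p = 0.00159, edgeR). Nrp2, the coreceptor of Sema3f and Sema3g, was at 12.8 and 10.6 TPM in acute ECs and 23.8 to 155 TPM in WT cultures, without a call. In the list of other ligands, 1 of 8 genes tested was lower, Flrt2 (-2.86). The plexin signalling list had 5 higher and 5 lower of 21, with the collapsin response protein Dpysl3 (5.42 ± 0.78) and Rnd1 (3.33 ± 0.86) among the higher. Rnd1 rose from 13.5 and 3.18 TPM to 124 to 213 TPM. The list of Robo and netrin signalling had 2 higher (Vasp and Cdc42) and 7 lower of 21, which included the Slit-Robo GTPase activators Srgap1 (-3.71) and Srgap2 (-3.08). Of the Eph signalling list, 1 was higher and 6 were lower of 22. Tiam1, a Rac activator, was at 121 and 89.4 TPM in acute ECs and at 0.215 to 0.673 TPM in WT cultures, the largest change among the list genes called (-8.08 ± 0.72, adjusted p = 0.000117, edgeR).

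Between GFP-positive and GFP-negative cells, 15 of the 90 list genes tested were called higher and 10 lower, beside 8.30% and 7.56% of all genes. Both neuropilins were higher in GFP-positive cells, Nrp1 by 4.14 ± 0.43 and Nrp2 by 2.96 ± 0.39 on the log2 scale (adjusted p of 0.00234 and 0.00444, edgeR). Arhgef15, an endothelial gene that acts downstream of Epha4, was higher by 3.83 ± 0.97, and the neuronal genes Crmp1, Trim9 and Anks1b were lower by -5.81, -6.46 and -5.67. None of the 76 list genes tested between stabilized and WT cultures was called.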

How the data were processed

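RNA-seq values of 14 libraries and ATAC-seq peaks of 10 libraries were used as deposited. The authors quantified transcripts with Salmon (0.14.0 in the submitters' processing notes), and the deposited files give an estimated count, an effective length and a TPM per transcript and library. The authors called ATAC-seq peaks per library with MACS2 (2.1.2), after alignment for which HISAT2 (2.1.0) is named, and the deposited files give a peak score, a fold enrichment over background, and −log10 p and −log10 q values. The score was not used in any result.

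Estimated counts and TPM were summed per gene symbol, counts were rounded, and protein-coding genes with enough counts for the comparison were tested with edgeR's quasi-likelihood test (edgeR 4.0.16, limma 3.58.1, R 4.3.3) after TMM normalization, with Benjamini-Hochberg adjustment over all genes tested. Genes were called at an adjusted p under 0.05, a change over 2-fold and at least 5 TPM in every library of the higher group. Named members were those called, those highest in acute ECs or WT cultures, those that varied most among WT experiments, and those without a count in a group. The members and gene lists were chosen with earlier results of these data known. DESeq2 (1.42.0), other scalings, a transcript length offset, other filters, left-out libraries, a replicate block and single experiments were tried as alternatives. On simulated counts with 200 genes changed 8-fold, the calls recovered 74% for culture against acute ECs (13659 genes, 43 false calls), 63% for GFP-positive against GFP-negative cells (14806 genes, 10 false calls) and 94% for stabilized against WT cultures (12811 genes, 15 false calls). In this simulation the TPM minimum had no effect, and wells of an experiment were drawn as independent libraries. The figures therefore do not describe the calls as made on these data. ATAC-seq peaks were kept at over 2-fold enrichment and −log10 q over 2. Samples of cerebrum alone were not analysed here.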

Additional observations from a re-analysis of the deposited data

Results flagged for a closer look

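Of the 10 members called within either isolation method, 8 also had an interaction of stabilization with method (edgeR's quasi-likelihood test, adjusted p under 0.05). Such an interaction was found for 25 of the 52 members tested (48.1%), beside 49.6% of all genes. Method cannot be told apart here from preparation or from the strain of the WT mice. The log2 difference, method B minus method A, was -0.55 for Epha7, 0.76 for Unc5b, 1.49 for Efna1, 0.85 for Ntn1, -2.21 for Sema3c, -1.71 for Sema3e, 0.86 for Sema3f and 2.70 for Sema3g. For Plxnd1 and Sema6b, the others called within a method, the adjusted p values of the difference were 0.163 and 0.832 (edgeR).

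For 3 members the WT culture experiments lay on both sides of the acute libraries, which was not tested as a difference. The highest experiment mean was 5.43 times the lowest for Unc5b, 13.3 times for Efna1 and 29.1 times for Sema3g.

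In the stabilized cultures, 1 library stood apart from the other 3 for Sema3e (5.74 TPM in replicate 3) and for Sema6a (6.45 TPM in replicate 2). Over 39 groups examined in this way there were 2 such libraries, and chance gives about 1 in 20 groups.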

How the results depend on the processing

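The comparisons rest on 2 acute libraries and 2 wells per culture experiment, and the part of depth in the standard errors was not tested. Of the fold changes of named members, 251 of 286 kept their direction and side of the threshold in the culture comparison, 161 of 169 in the GFP comparison and 145 of 168 in the comparison of stabilized with WT cultures. All 24 counts of members with start-site peaks stayed within 1.5 times. Scaling by library size moved the all-gene median on the log2 scale from 0.10 to 0.30 in culture and from -0.06 to -0.44 for GFP-positive cells. The causes of the changes below were not tested.

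Against 3 members called higher in culture, 5 were called with the transcript length offset, 9 without the TPM minimum, 6 with the replicate block, 5 in method A cultures alone, 7 in method B cultures of 36 cycles alone, and 1 to 3 when a library was left out. Against 3 called lower, there were 8 without the TPM minimum, 6 in method B cultures of 36 cycles, 8 in the 150-cycle cultures (an alternative chosen after seeing the data), and 3 to 6 when a library was left out. Against 4 called lower in GFP-positive cells, there were 24 without the TPM minimum and 4 to 8 when a library was left out. For stabilized cultures, against 0 called higher, there were 2 with the replicate block, 4 in method A, 6 in method B at 36 cycles and 4 at 36 cycles with method as a covariate, and 1 was lower in method B. Over all genes tested, 1866 were called higher in culture as reported. There were 1782 with the length offset, 3160 without the TPM minimum and 1865 with the replicate block. Method A cultures alone gave 2034, and method B of 36 cycles 2189. Called lower in culture were 1409 genes as reported, 2825 without the TPM minimum, 1546 in method B of 36 cycles and 2064 at 150 cycles. In stabilized cultures the replicate block gave 149 genes higher and 24 lower.

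In culture, the log2 fold change turned for Robo4 (-0.12 without acute replicate 2, with a range of -0.12 to 0.69 over left-out libraries, -0.0046 in 36-cycle cultures and -0.33 in method B of 36 cycles), Unc5b (0.26 with the length offset, 0.66 with the replicate block, 0.65 in method A), Sema3g (0.61 with the replicate block, 0.60 in method A) and Efna1 (-1.13 in method B of 36 cycles). In stabilized cultures it turned for Sema3g (-0.085 in 36-cycle cultures, -0.33 in method A), Efna1 (-0.041 with library size scaling, -0.54 with the replicate block, -0.016 in method A, and -0.22, -0.15, -0.17 and -0.13 without stabilized replicate 1 or 2 or WT replicate 5 or 6, within a range of -0.22 to 0.29) and Sema3c (-0.55 in method B). None of these was called in the comparison as reported.

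Replicate numbers are shared between groups, but samples of 1 number deviated together in stabilized and WT cultures for numbers 1 and 2 only (r across genes 0.4664 and 0.4626, against -0.010 and 0.043 for 3 and 4), and hardly in the other comparisons (-0.034 and 0.038 for culture, 0.060 for GFP). The numbers were therefore not taken as pairs, and the counts with the block are those given above.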
